A study of Homo sapiens with 7 samples.

Results

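The genes described here encode the nuclear part of the oxidative phosphorylation machinery. They were taken by name, as all genes whose current symbol starts with NDUFA, NDUFB, NDUFC, NDUFS, NDUFV, UQCR, ATP5F1, ATP5M, ATP5P or COX4 to COX8, together with SDHA, SDHB, SDHC, SDHD, CYC1 and CYCS. This gave 91 of the 19775 genes on the arrays, read by 174 probe sets that name 1 gene alone. The symbols took in more than subunits: 8 NDUFAF genes encode assembly factors of complex I, 3 are antisense or divergent transcripts and 2 are pseudogenes, which left 78 genes for structural subunits or cytochrome c. Some subunit genes were not analysed here, among them SDHB, which leaves complex II with 3 genes, and NDUFS5, NDUFS8, NDUFC2 and UQCRH, whose probe sets name several genes.

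Oxidative phosphorylation takes place in the inner mitochondrial membrane. Complexes I and II pass electrons from NADH and succinate to ubiquinone, complex III passes them to cytochrome c, and complex IV hands them to oxygen. Proton pumping by complexes I, III and IV drives the ATP synthase. Most subunits are encoded in the nucleus, but complexes I, III, IV and the ATP synthase also hold subunits encoded in mitochondrial DNA, so both genomes supply parts of the same enzymes.

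The study used the human fibrosarcoma line HT1080, with 1 Affymetrix expression array for each of 7 cultures. Treatments lasted 2 h: 11.25 ng/ml of catechin, 6.25 ng/ml of either epicatechin or taxifolin, 2195 ng/ml of resveratrol, 5% control serum or 5% pycnogenol-positive serum, while the remaining culture was untreated. Pycnogenol is a pine bark extract, catechin and epicatechin are stereoisomeric flavan-3-ols, taxifolin is a related flavanonol and resveratrol is a stilbene. All cultures were of this single line, and the labels name neither a solvent nor a medium change for the untreated culture. Each group had 1 array, so there is no replicate error to compare with, no test was made, and every value describes single arrays.

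Values are signal intensities rather than counted molecules, and precision is limited by how many arrays there are. The median signal of an array ran from 114 to 136. The ratio of 3′ to 5′ control probe sets, a measure of RNA integrity, ran from 2.40 to 4.02 for ACTB and from 0.961 to 1.12 for GAPDH. For ACTB it was lowest untreated, and highest with epicatechin (4.02), catechin (3.56) and taxifolin (3.05). Resveratrol gave 2.52, control serum 2.55 and pycnogenol serum 2.82. For GAPDH the untreated array was the highest and resveratrol the lowest. All 10 mesenchymal markers read above the signal filter of 269, with a summed signal of 258329 to 274990. Of 7 epithelial markers, KRT8 and KRT18 read above the filter, and of the 7 blood cell markers on the array HBB alone did. The summed signal ran from 21075 to 23305 for the epithelial and from 539 to 854 for the blood cell markers. HBB, a haemoglobin gene, was lowest untreated and highest with pycnogenol serum (227 and 522), and its part in the results was not tested.

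Promoters of the nuclear genes were searched for short motifs of factors known for nuclear control of mitochondria, in windows of 250 bases before to 50 bases after the start site (RefSeq, GRCh38.p14). Of the subunit genes, 62 had a promoter in the table. The core of NRF1, nuclear respiratory factor 1, was searched as GCATGCGC on both strands, and 14 of the 62 (22.6%) held it, against 4.89% of the promoters of protein-coding genes and 3.68% of all promoters. A longer form, the same core preceded by GC, was found in 4 (6.45%) against 1.99% and 1.52%. The ETS core CCGGAAG, bound by the GABP factor, was found in 19 (30.6%) against 16.5% and 12.2%, and the YY1 core AAGATGGCG in 8 (12.9%) against 3.21% and 2.14%. Promoters of 68 mitochondrial ribosomal protein genes held the ETS core in 44.1% and the YY1 core in 17.6%, both above the subunit genes, and the NRF1 core in 8.82%. The NRF1 core was held by 6 of 31 complex I genes, 1 of 2 for complex II, 0 of 5 for complex III, 2 of 10 for complex IV, 4 of 13 for the ATP synthase and by CYCS. A match describes these letters and does not show binding.

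Printed below are the 250 bases before the start site of 4 members of different parts of the chain. They were picked among the 14 of 62 that hold the NRF1 core, which most of the subunit promoters lack, and show where it lies in each. Capitals mark the longer form of the NRF1 motif in NDUFB4, SDHD and ATP5F1C, and the core alone in CYCS. NDUFB4 is at chr3:120596086-120596335 on the plus strand, SDHD at chr11:112086623-112086872 on the plus strand, CYCS at chr7:25125261-25125510 on the minus strand and ATP5F1C at chr10:7787927-7788176 on the plus strand.
NDUFB4: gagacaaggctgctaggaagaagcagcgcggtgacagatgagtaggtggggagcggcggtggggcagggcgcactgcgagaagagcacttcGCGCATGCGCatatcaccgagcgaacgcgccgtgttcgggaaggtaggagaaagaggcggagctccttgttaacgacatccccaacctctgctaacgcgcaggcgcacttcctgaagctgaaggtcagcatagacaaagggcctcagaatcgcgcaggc
SDHD: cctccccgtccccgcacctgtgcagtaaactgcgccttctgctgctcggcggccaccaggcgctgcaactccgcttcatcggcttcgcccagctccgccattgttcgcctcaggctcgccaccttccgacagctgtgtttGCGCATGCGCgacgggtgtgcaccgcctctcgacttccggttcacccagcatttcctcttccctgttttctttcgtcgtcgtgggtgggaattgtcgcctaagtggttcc
CYCS: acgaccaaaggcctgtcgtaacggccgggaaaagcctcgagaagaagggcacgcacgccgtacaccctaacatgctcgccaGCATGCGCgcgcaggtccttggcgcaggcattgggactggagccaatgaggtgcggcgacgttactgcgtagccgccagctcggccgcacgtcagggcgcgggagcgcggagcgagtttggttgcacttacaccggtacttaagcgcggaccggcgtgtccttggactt
ATP5F1C: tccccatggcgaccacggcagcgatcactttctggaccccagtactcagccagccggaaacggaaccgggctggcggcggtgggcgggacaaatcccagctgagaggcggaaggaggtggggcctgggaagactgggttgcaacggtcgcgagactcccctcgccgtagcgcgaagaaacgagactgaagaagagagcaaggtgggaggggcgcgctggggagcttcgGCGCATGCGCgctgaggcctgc

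Messenger RNAs for the nuclear subunits, each read by its brightest probe set, were bright and differed little between the 7 cultures. The mitochondrially encoded subunits read lowest with pycnogenol serum. Of the 91 genes, 79 passed the signal filter, among them 71 genes for subunits or cytochrome c and all 8 assembly factors. Signals of the 71 ran from 3014 to 48110 over all arrays. The ratio of the highest to the lowest array had a median of 1.17 over these 71 genes, and in 58 of them (81.7%) the highest exceeded the lowest by less than 25%. Over all 9888 genes above the filter the median ratio was 1.38 and 25.9% stayed under that limit. The same 25%, a log2 difference of 0.32, is the threshold for counting differences between arrays below, in either direction.

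Bright genes in general had narrow ranges. The 3557 genes at least as bright as the dimmest subunit gene had a median ratio of 1.26, and the 552 genes at least as bright as the median subunit gene had one of 1.16, with 76.1% under the 25% limit. All 71 subunit genes are in the first set, but only those at or above their own median are in the second. Both sets also hold mitochondrially encoded genes, which are described further below. One of these, ND4, had the largest ratio of the 552, 2.87, so values given for the bright genes include such genes. Both sets were chosen after seeing the data. The 71, which include genes dimmer than the second set, had nearly the same median ratio as that set, so brightness was not matched. The standard deviation (SD) of log2 differences over the 71 genes ran from 0.106 to 0.139 in the comparisons with a control, where all genes above the filter gave 0.235 to 0.337 and the 552 bright genes 0.0977 to 0.152.

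**Figure D1:**
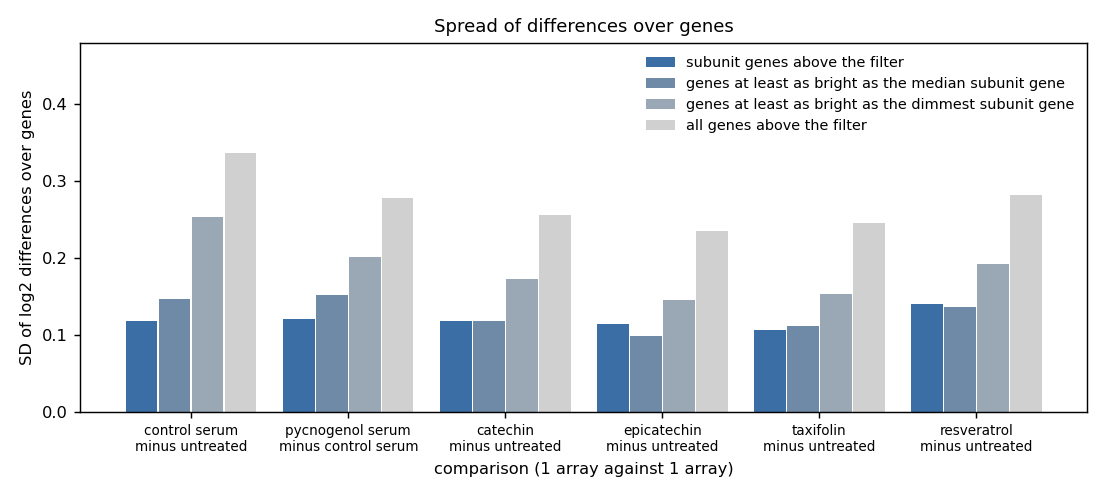
Bars give the SD over genes of the log2 difference between 2 arrays for 6 comparisons, in the 71 subunit genes, in 2 sets of bright genes and in all genes above the filter. The subunit bars lie between 0.106 and 0.139, well under all genes above the filter and close to the genes at least as bright as the median subunit gene.

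The steadiest subunit gene was NDUFB8, an accessory subunit of complex I, which read 13762 untreated and 13579, 13003, 13713 and 12934 with catechin, epicatechin, taxifolin and resveratrol. Control serum gave 13260 and pycnogenol serum 13300, for a highest over lowest ratio of 1.06. COX7C, a small subunit of complex IV, ran from 41695 untreated to 44835 with taxifolin (ratio 1.08). The catalytic beta subunit gene of the ATP synthase, ATP5F1B, ran from 26425 with epicatechin to 29213 with resveratrol (ratio 1.11). CYCS, the cytochrome c gene, was lowest untreated at 42802 and highest with pycnogenol serum at 48110 (ratio 1.12). Median ratios by complex were 1.18 for complex I, 1.22 for complex II, 1.18 for complex III, 1.16 for complex IV and 1.14 for the ATP synthase.

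At the other end, 2 subunit genes reached a ratio of 1.5, both accessory subunits of complex I. NDUFA10 read 3442 untreated, 3574 with catechin, 3014 with epicatechin, 3811 with taxifolin, 4883 with resveratrol, 3797 with control serum and 3406 with pycnogenol serum. Its resveratrol array stood above the other 6, for a ratio of 1.62. NDUFB1 read 17141, 17223, 19164, 21859, 14830, 20259 and 23135 in the same order, so that resveratrol was lowest and pycnogenol serum highest, for a ratio of 1.56. Next came UQCR10, a small subunit of complex III, at 1.45, and NDUFA1, an accessory subunit of complex I, at 1.42.

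**Figure D2:**
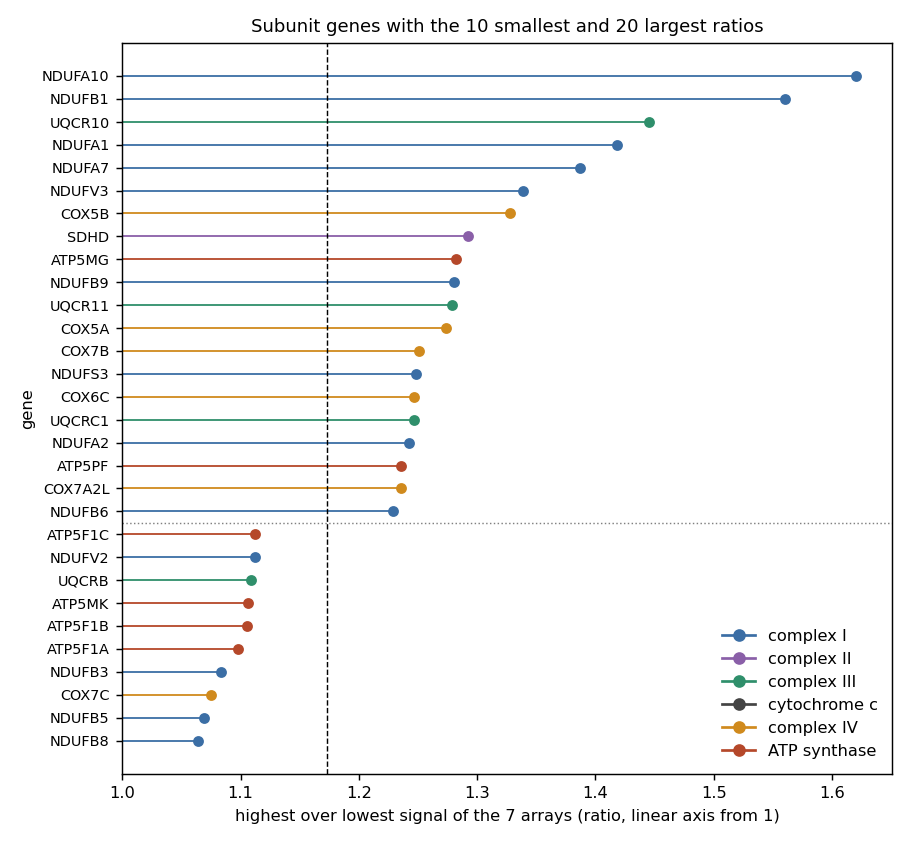
Points give the highest over the lowest signal of the 7 arrays for the 10 steadiest and the 20 most variable of 71 subunit genes, coloured by complex, with the median of 1.17 over the 71 as a dashed line. NDUFA10 at 1.62 and NDUFB1 at 1.56 lie at the top and NDUFB8 at 1.06 at the bottom.

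The untreated array was the lowest of the 7 for 24 of the 71 subunit genes (33.8%), where it was lowest for 16.9% of all genes above the filter. Taxifolin was highest for 20 (28.2%, against 13% of all genes) and pycnogenol serum for 16 (22.5%, against 20.5%). The untreated array was highest for 1 of them (1.41%, against 9.68%). The shift was small: the median deviation of the untreated array from the mean of the 7 was -0.057 (log2) for the subunit genes and -0.017 for all genes. It enters every difference from the untreated culture given next, because those share that array. The same array had the lowest 3′ to 5′ ratio for ACTB (2.40) and the highest for GAPDH (1.12). The part of RNA integrity in this shift was not tested.

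With control serum against the untreated culture, the 79 genes had a median log2 difference of 0.055 and 55 lay above 0 (69.6%, against 51.3% of all genes above the filter, whose median was 0.0076). The 552 bright genes were at 61.1% above 0 with a median of 0.032, nearer to the 79. With the mean of the 5 arrays without test serum as reference in place of the untreated array, the median of the 79 was -0.0064, the other direction. Past the 25% threshold was 1 gene, against 27.4% of all genes (12.7% higher) and 28 of the 552 bright ones. None passed 2-fold, against 1.2% of all genes. The 1 gene past 25% was NDUFV3, an accessory subunit at the NADH-oxidising end of complex I, at 0.42. It read 4092 untreated, 5477 with control serum and 4923 with pycnogenol serum, and 5232, 4424, 4784 and 5048 with catechin, epicatechin, taxifolin and resveratrol. The untreated array was thus the lowest of the 7. A second, dimmer probe set of NDUFV3 had the untreated array highest, at 1108, and gave -0.23 for control serum.

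By complex, the medians for control serum were 0.046 for complex I, 0.12 for complex II, 0.030 for complex III, 0.0049 for complex IV and 0.094 for the ATP synthase, where 14 of 16 genes lay above 0. The share above 0 was 51.3% over all genes and 61.1% over the 552 bright ones. Of the ATP synthase, the largest difference was that of ATP5MC1 at 0.27, which read 7424 untreated and 8960 with control serum. It is one of 3 genes for the membrane ring subunit c, and the other 2, ATP5MC2 and ATP5MC3, were at 0.087 and 0.096. In complex II, the membrane anchor SDHD was at 0.25 and SDHA, the catalytic flavoprotein, at 0.12. In complex III, CYC1, which encodes cytochrome c1, was at 0.16 and UQCR11 at -0.17, and in complex IV COX5B was at 0.19 and COX5A at -0.16.

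With pycnogenol serum against control serum, the median of the 79 genes was 0.034, 50 lay above 0 (63.3%, against 51.6% of all genes), and 3 passed the 25% threshold, against 18.3% of all genes. All 3 were higher, against 8.72% of all genes, and 0 passed 2-fold, against 0.536%. The 552 bright genes had 65.0% above 0 and a median of 0.044, both higher than the 79, and 24 of the 552 passed the 25% threshold. The lowest of the 552 was ND2, a mitochondrially encoded gene, at -0.87. With quantile normalization or pairwise loess 2 genes passed the 25% threshold. NDUFAF1, an assembly factor of complex I, was at 0.63, with 1967 with control serum and 3044 with pycnogenol serum. Its signals without test serum were 2197 untreated, 2851 with catechin, 2196 with epicatechin, 2250 with taxifolin and 2002 with resveratrol. Control serum was thus the lowest of the 7 arrays and pycnogenol serum the highest. NDUFB9, an accessory subunit of complex I, was at 0.36 (19221 and 24609), and COX5A, a subunit of complex IV, at 0.35 (25996 and 33110). For both genes, too, control serum was the lowest array and pycnogenol serum the highest, with untreated signals of 21311 and 28946.

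Among the genes lower with pycnogenol serum, the assembly factor gene NDUFAF7 was at -0.31, NDUFA7 at -0.28 and NDUFA1 at -0.27, all short of the threshold. For complex III, the median was -0.032, with UQCRC1, one of the large core proteins, at 0.20 and UQCR10 at -0.20. For complex IV it was 0.043 with 7 of 11 genes above 0, and for the ATP synthase 0.024 with 11 of 16 above 0, against 51.6% of all genes. Complex II had 3 of 3 below 0, but the differences of SDHA (-0.071) and SDHC (-0.0086) were small.

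The mitochondrially encoded subunits did not share this narrow range. The array annotation gave 7 of their genes, for ND2, ND4 and ND6 of complex I, COX1, COX2 and COX3 of complex IV and ATP6 of the ATP synthase. With pycnogenol serum against control serum their median was -0.79, 7 of 7 lay below 0, and all 7 were past the 25% threshold, against 9.6% of all genes. Pycnogenol serum was the lowest of the 7 arrays for 7 of 7 genes and for 10 of their 10 probe sets, where it was lowest for 21.2% of all genes and for 5 of the 71 nuclear subunit genes. These counts are not separate observations, as they come from 1 array. Genes other than ND6 share a strand of mitochondrial DNA, and COX2, ND4 and ATP6 each have more than 1 probe set. The dimmer ATP6 probe set read 153 there, less than the signal filter of 269.

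ND2 read 21111 untreated, 23636 with catechin, 24764 with epicatechin, 26844 with taxifolin, 27586 with resveratrol, 22636 with control serum and 12372 with pycnogenol serum. In the same order COX3 read 4200, 5123, 6289, 5986, 7727, 4706 and 2388, and ATP6 read 34746, 41662, 42472, 46146, 45853, 35745 and 20727. In each of these, pycnogenol serum was well under the other 6 arrays and taxifolin or resveratrol was highest. The 7 differences for pycnogenol serum ran from -0.98 for COX3 to -0.49 for COX1. Highest over lowest ratios of the 7 genes ran from 1.72 to 3.24, each above the largest among the 71 nuclear subunits, 1.62.

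Against the untreated culture, the median of the 7 mitochondrial genes was 0.10 with control serum, 0.26 with catechin, 0.24 with epicatechin, 0.45 with taxifolin and 0.39 with resveratrol. Past the threshold and higher were 7 of 7 with taxifolin, against 7.31% of all genes, and 5 of 7 with resveratrol, against 9.99%. For nuclear subunits the counts past the threshold and higher in those comparisons were 1 and 2 of 71. ND6, the one protein gene on the other strand of mitochondrial DNA, had its highest signal with control serum (11579) and read 7139 untreated, 6226 with catechin and 6167 with pycnogenol serum. The 3′ to 5′ ratio of ACTB was 2.82 with pycnogenol serum and 2.55 with control serum, inside the range of the other arrays, and that of GAPDH was 1.09 and 1.06. The part of RNA preparation in the mitochondrial signals was not tested.

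**Figure D3:**
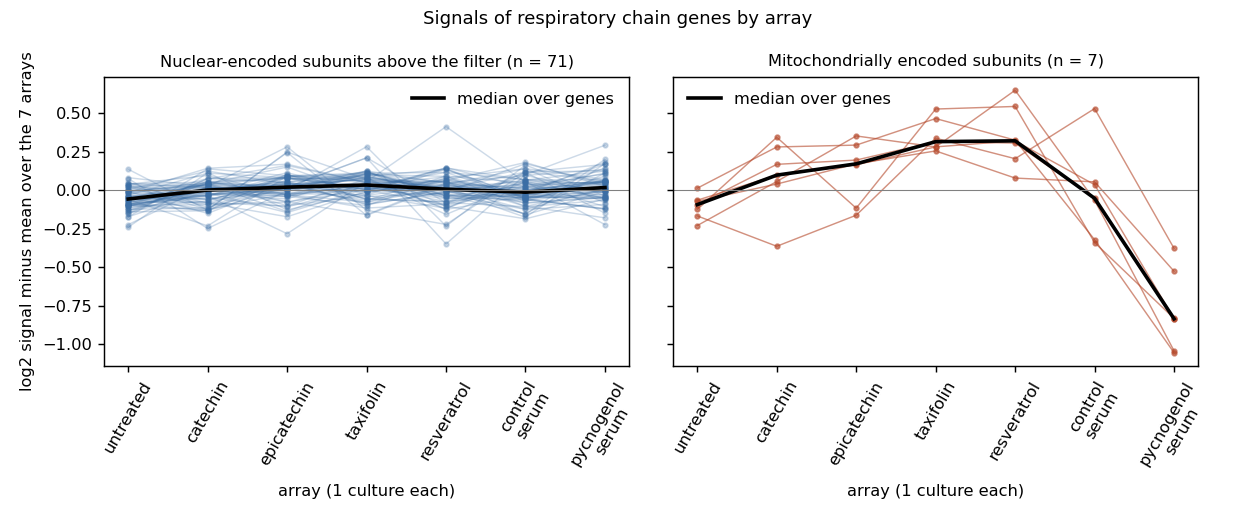
Points give the log2 signal minus the gene's mean over the 7 arrays, for 71 nuclear-encoded subunit genes and 7 mitochondrially encoded ones, with lines joining the points of a gene and the median over genes in black. The nuclear medians stay between -0.057 and 0.034, whereas the mitochondrial median is -0.84 on the pycnogenol serum array.

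Each compound was set against the untreated culture, and the 4 differences share that array. The median of the 79 genes was 0.041 with catechin, 0.072 with epicatechin, 0.076 with taxifolin and 0.081 with resveratrol, where all genes above the filter gave 0.035, 0.032, 0.032 and 0.025. Above 0 lay 54, 55, 62 and 55 of the 79 genes, or 68.4%, 69.6%, 78.5% and 69.6%, against 57.6%, 57.3%, 57.2% and 54.8% of all genes. In the 552 bright genes the shares were 58.2%, 72.1%, 76.4% and 65.4%, close to the 79 genes for all but catechin. With the mean of the other 4 arrays without test serum as reference, the medians of the 79 were 0.016, 0.028, 0.033 and 0.017. Past the 25% threshold were 3, 0, 1 and 2 genes, against 15.9%, 13.4%, 14% and 19.2% of all genes. Of the 552 bright genes, 7, 3, 14 and 22 passed it, so few bright genes did in general. These counts include mitochondrially encoded genes. Among them COX1 was the highest of the 552 with catechin, taxifolin and resveratrol, at 0.47, 0.65 and 0.67. None of the 79 passed 2-fold, against 0.455%, 0.314%, 0.465% and 0.728%.

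With catechin, UQCR10 was lower at -0.32 (22068 untreated, 17620 with catechin), 1 gene against 7.25% of all genes. NDUFAF1 at 0.38 and NDUFV3 at 0.35 were higher, 2 genes against 8.7%. NDUFA2, an accessory subunit of complex I, was just short of the threshold at 0.31. The second UQCR10 probe set gave -0.11 and the second NDUFV3 probe set -0.44, the opposite direction for the latter. With epicatechin, the largest differences were those of ATP5PF, coupling factor 6 of the ATP synthase, at 0.305 and COX5B at 0.29, and UQCRC1 was lowest at -0.20. In that comparison 14 of 16 ATP synthase genes and 10 of 11 complex IV genes lay above 0, against 57.3% of all genes and 72.1% of the 552 bright ones. For complex I it was 23 of 33, for complex II 2 of 3, for complex III 3 of 7 and for the assembly factors 2 of 8.

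With taxifolin, NDUFB1 was at 0.35 (17141 untreated, 21859 with taxifolin). It was the 1 gene past the threshold, and after quantile normalization or pairwise loess 0 passed. It was followed by NDUFB6 at 0.297 and NDUFA9 at 0.23, like it accessory subunits of complex I. The lowest were NDUFA1 at -0.21 and NDUFAF7 at -0.21. With resveratrol, where those normalizations gave 4 genes in place of 2, NDUFA10 was at 0.50, and its other 4 probe sets read under the filter. SDHD, the small membrane anchor of complex II, was at 0.37. It read 14207 untreated, 16920, 16825, 16550 and 18363 with the compounds in the order above, and 16839 and 16745 with control and pycnogenol serum. The untreated array was lower than all 6 others, which lay between 16550 and 18363. UQCR10 at -0.31 and NDUFA1 and NDUFA7 at -0.304 and -0.29 were lowest with resveratrol.

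**Figure D4:**
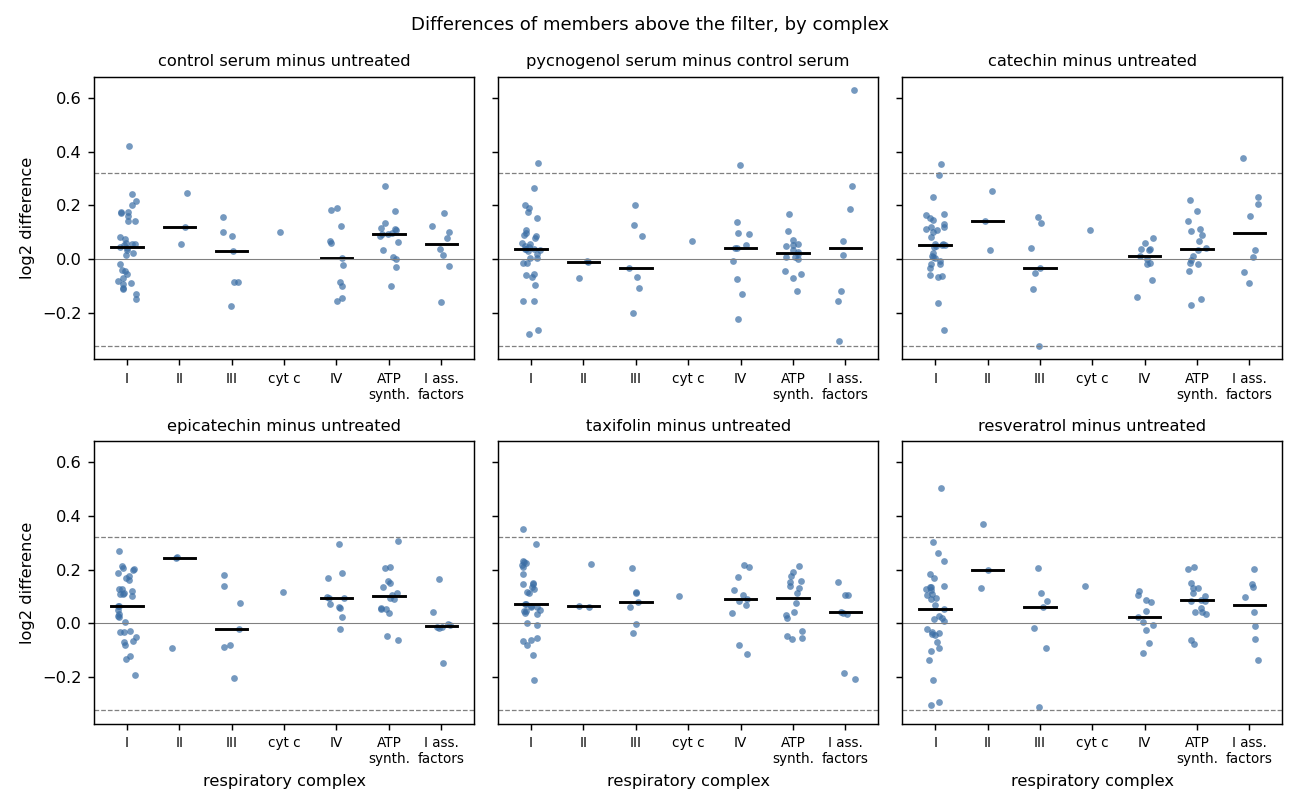
Points give the log2 difference of each of the 79 genes above the signal filter for 6 comparisons, grouped by complex, with black bars at group medians and dashed lines at the 25% threshold. Nearly all points lie between the dashed lines, with NDUFAF1 at 0.63 (pycnogenol serum) and NDUFA10 at 0.50 (resveratrol) the farthest outside.

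Epicatechin and taxifolin were given at the same concentration for the same time. Their rings differ, as taxifolin carries a ketone that the flavan-3-ol epicatechin lacks. Between these arrays (epicatechin minus taxifolin) the median of the 79 genes was -0.018 and 35 lay above 0 (44.3%, against 49.8% of all genes and 43.3% of the 552 bright ones). The 25% threshold was passed by 3, against 15.9% of all genes and 9 of the 552 bright ones, and 2-fold by 0, against 0.324% of all genes. NDUFA1 was at 0.41 (17599 and 13230), COX5B at 0.41 (25390 and 19126) and NDUFA10 at -0.34 (3014 and 3811). Another 2 bright COX5B probe sets gave 0.045 each and a dim one 0.072, the same direction at a smaller size. With 1 array each, no interval of the difference could be given. Catechin was given at another concentration than its stereoisomer epicatechin, so their values stand side by side only.

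For both serum arrays together against the 5 arrays without test serum, the groups of arrays did not overlap for 7 genes that were higher with serum, against 13.5% of all genes above the filter, and for 4 that were lower, against 16.1%. Those are 8.86% and 5.06% of the 79. The higher ones were NDUFS6 at 0.20, ATP5MG at 0.17, NDUFB4 at 0.16, NDUFAF8 at 0.15, NDUFB2 at 0.13, ATP5PD at 0.094 and ATP5F1A at 0.063. NDUFS6, an accessory subunit of complex I, read 22467 and 23255 in the serum cultures and 19102 to 20715 in the others. The lower ones were COX7A2L at -0.199, NDUFS7 at -0.15, NDUFS4 at -0.13 and ATP5F1D at -0.13. COX7A2L, a factor in joining complexes III and IV, read 15502 with control and 14713 with pycnogenol serum, and 16894 to 18178 without. Of the 79 genes 43 (54.4%) lay above 0, against 48.1% of all genes and 60.9% of the 552 bright ones. None of the 79 passed the 25% threshold or 2-fold, against 19.7% and 0.708% of all genes. Of the 552 bright genes, 24 passed the 25% threshold, and the lowest of the 552 was the mitochondrially encoded ND4 at -0.96.

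The tissue isoforms of complex IV were dim. COX4I2, COX6A2, COX6B2, COX7A1, COX7B2 and COX8C, known from lung, muscle or testis, had no mean above the signal filter. The brightest of their signals was 275, for COX6A2 with taxifolin. Their widely expressed counterparts COX4I1 and COX6A1 each passed the filter. Also under the filter were the transcripts NDUFB2-AS1, NDUFV1-DT and NDUFV2-AS1 and the pseudogenes ATP5MC2P1 and COX6A1P1. ATP5MF read 8.44 to 110 on its 1 probe set that names it alone. COXFA4, a complex IV subunit once named NDUFA4 and so outside the symbols used, read 17987 to 21916.

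Of the 79 brightest probe sets, 44 had the suffix _s_at or _x_at, which marks probes that can match more than 1 transcript, and many of these genes have processed pseudogenes. For 31 genes, 48 further probe sets passed the filter. Their direction was that of the brightest in 31 of 48 cases for control serum, 34 for pycnogenol serum, 27 for catechin, 25 for epicatechin, 32 for taxifolin and 31 for resveratrol. Small differences thus often changed sign between probe sets of a gene.

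Lists of other nuclear genes of mitochondria had medians near 0 as well. Their spreads were wider than that of the subunit genes for pycnogenol and control serum, but not in every comparison. With resveratrol the SD was 0.108 for the citric acid cycle list and 0.129 for the carriers, against 0.139 for the 71 subunit genes. The lists also hold dimmer genes, such as MRPL2 with signals of 389 to 570, so brightness was not matched. For pycnogenol serum against control serum the medians were 0.0047 for 44 assembly factors outside the symbols used, 0.024 for 76 mitochondrial ribosomal proteins, 0.080 for 22 import proteins of the TOMM and TIMM families, and -0.084 for 15 enzymes of the citric acid cycle and pyruvate dehydrogenase. They were -0.0057 for 15 regulators of mitochondrial biogenesis and -0.0095 for 8 carriers, channels and the ATPase inhibitor. The median of all genes above the filter was 0.0083. The SD over the genes of a list ran from 0.165 to 0.250, against 0.120 for the 71 subunit genes and 0.277 for all genes. Past the 25% threshold in the order given were 5, 4, 2, 3, 1 and 1 genes, against 18.3% of all genes. Among them MRPL49, a ribosomal protein, was at 0.63, TOMM70, an import receptor, at -0.60, VDAC1, the outer membrane channel, at -0.51 and SUCLA2, a subunit of succinyl-CoA synthetase, at -0.503.

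For control serum against the untreated culture the same lists had medians of 0.082, 0.064, 0.064, 0.036, 0.096 and 0.087, with 10, 6, 7, 1, 3 and 2 genes past the threshold, against 27.4% of all genes. TIMM8A, an import chaperone, was at 0.85 and the assembly factor SDHAF4 at -0.92, the latter with signals of 355 to 691. SUCLA2 was at 0.34 and VDAC1 at 0.36. The control serum array enters both comparisons with opposite sign.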

How the data were processed

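Total RNA of HT1080 cells was hybridised to Affymetrix arrays with 54675 probe sets. The deposited values are signal intensities that the authors computed with MAS5, per the submitters' processing notes, on a linear scale with a trimmed mean of 1000 per array, and its version was not given in the sources used here. Probe sets were named with the platform's annotation, updated through RefSeq gene IDs: 41097 named 1 gene, and 1801 named several and were left out. Signals under the 25th percentile, 34.9, were raised to it before taking log2. The brightest probe set stood for a gene, and the 9888 genes at or above the median mean signal, 269, were compared. Differences past 25% and 2-fold were counted, without p-values, since each group had 1 array. Pairwise loess used a span of 0.3 (statsmodels 0.14.6, Python 3.11.15). Named genes were the largest differences overall and per complex, every gene past 25%, and per list the largest differences. NDUFB8, COX7C, ATP5F1B, the ATP5MC genes and promoters were chosen after their values were seen. Members and lists were chosen with earlier results of these data known. The code was tested on simulated data.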

Additional observations from a re-analysis of the deposited data

How the results depend on the processing

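No paired analysis was possible because each group had 1 array, and no replicate could be left out. Loess was not run for both serum arrays against the others. Quantile normalization gave medians over the oxidative phosphorylation genes of 0.020 for control serum, 0.035 for epicatechin, 0.056 for taxifolin and -0.012 for both serum arrays against the others (0.013 before), with 0 genes past the 25% threshold for taxifolin and 4 for resveratrol. Pycnogenol serum had 2 under this and under loess. Pairwise loess gave 0.012, 0.021 and 0.033 for control serum, epicatechin and taxifolin, with 0 and 4 genes for taxifolin and resveratrol and 2 for catechin. Other references gave -0.0064 for control serum (mean of the 5 arrays without test serum), 0.096 for pycnogenol serum (untreated array), and 0.028, 0.033 and 0.017 for epicatechin, taxifolin and resveratrol (mean of the other 4 arrays without test serum).

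Counts past the 25% threshold were larger when dimmer probe sets entered. In the order control serum, pycnogenol serum, catechin, epicatechin, taxifolin, resveratrol, epicatechin against taxifolin, and both serum arrays, they were 11, 14, 12, 10, 14, 18, 14 and 4 of 84 genes with probe sets averaged. They were 6, 6, 10, 7, 12, 10, 13 and 1 of 63 without _x_at and _s_at probe sets, and 4, 8, 9, 3, 6, 6, 8 and 2 of 91 with no signal filter. The shares of all genes under these settings were not computed, so these counts have no background beside them. The small counts given earlier hold for the brightest probe set of each gene above the filter. With a 2-fold threshold and the other settings unchanged, the count was 0 of 79 in each. With probe sets averaged the medians were 0.028 for epicatechin and -0.064 for epicatechin minus taxifolin, the latter -0.043 when only probe sets free of these suffixes were read. The cause of these shifts was not tested. Of the alternative counts, those at 2-fold included, 34 moved away from the main count and 29 stayed the same or close to it. Of the 69 alternative medians, 54 stayed within a binomial interval of the main median over genes, 14 moved outside it and 1 reversed. That interval takes the genes as independent, though all were read on the same arrays, so it measures no error between cultures.

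The mitochondrially encoded genes, in alternatives added after seeing the data, kept a negative median for pycnogenol serum, between -0.75 and -1.02, with -0.98 over 4 genes without _x_at and _s_at probe sets and -1.02 against the 5 arrays without test serum.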
